A study of Drosophila melanogaster with 3 samples.

Results

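The 10 genes described here encode, or were listed for their relation to, subunits of the machinery that carries proteins into mitochondria in Drosophila melanogaster. They are Tim13, Tim17b, Tim17b1, Tim17a1, Tim17a2, ttm2, ttm3, ttm50, tomboy20 and tomboy40, taken by symbol from a count table of 16509 genes, and all 10 were present. They were chosen by their ratio of counts in Dcg > Hpo to counts in Dcg/+, several being far lower in Dcg > Hpo, so their values in that comparison are given as a description only. The same holds for Dcg > Hpo against Dcg > Hpo-RNAi, which uses the same Dcg > Hpo counts. The comparison of Dcg > Hpo-RNAi with Dcg/+, the positions of the genes and the remaining import genes were not used to choose them, although earlier results for all 3 libraries were known.

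Most mitochondrial proteins are made in the cytosol and cross the outer membrane through the TOM complex, in which Tom20 is a receptor and Tom40 forms the channel. Proteins with a cleavable presequence then pass the inner membrane through the TIM23 complex, in which Tim17 and Tim23 are the core membrane subunits and Tim50 is a receptor on the side of the intermembrane space. Small TIM proteins such as Tim8, Tim9, Tim10 and Tim13 are chaperones that escort hydrophobic proteins across the intermembrane space. The Drosophila genome carries further copies of several of these genes, and tomboy20, tomboy40, ttm2 and ttm3 are known as copies used in the male germ line. Male germ cells of the fly rebuild their mitochondria during spermatid formation, when these fuse into a large body called the nebenkern and then elongate along the sperm tail. In the larva the gonads lie within the fat body.

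RNA of larval fat tissue was sequenced from 1 library for each of 3 genotypes, Dcg > Hpo, Dcg > Hpo-RNAi and Dcg/+. All carry the Dcg-Gal4 driver, which is active in the fat body. Dcg/+ carries the driver alone, Dcg > Hpo also overexpresses the kinase gene hpo, and Dcg > Hpo-RNAi, labelled Dcg>Hpo-Ri, expresses an interfering RNA against it. According to the study the larvae were in the last instar and fat bodies of many animals were pooled, whereas the extraction text among the labels names adult heads. The labels do not give the sex of the larvae.

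Libraries held 23227940 counts in Dcg > Hpo, 23524682 counts in Dcg > Hpo-RNAi and 21918672 counts in Dcg/+. The hpo gene had 11568 counts in Dcg > Hpo and 182 counts in Dcg > Hpo-RNAi, against 289 counts in Dcg/+. The 7 fat body markers, genes of larval serum proteins and other fat body products, made up 19.4% of the counts in Dcg > Hpo, 18.4% in Dcg > Hpo-RNAi and 18.8% in Dcg/+. With 1 library for each genotype no test was possible, and a difference between genotypes cannot be told apart from a difference between the libraries or the animals pooled in them. CPM stands for a gene's counts scaled to a library total of 1000000. Intervals are exact 95% intervals and cover counting error only. A gene was called higher or lower where its ratio of library shares was at least 2 or at most 0.5 with an interval that excludes 1, given 10 or more counts in either library.

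Of the 10 listed genes, 8 were called lower in Dcg > Hpo than in Dcg/+ and none higher, where 22.8% of all 11834 genes with enough counts were called lower and 18.2% higher. The 8 are Tim13 and the 7 genes Tim17b1, Tim17a1, Tim17a2, ttm2, ttm3, tomboy20 and tomboy40. The 2 not called are Tim17b and ttm50, the widely expressed Tim17 and Tim50 genes. Against Dcg > Hpo-RNAi the same 8 genes were called lower in Dcg > Hpo, where 24.3% of all genes were called lower and 19.4% higher, and this comparison shares the Dcg > Hpo library by which the genes were chosen. Between Dcg > Hpo-RNAi and Dcg/+ none of the 10 was called, where 7.81% of all genes were called higher and 9.09% lower. In bulk tissue, fewer cells of a type and less RNA per cell cannot be told apart.

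**Figure D1:**
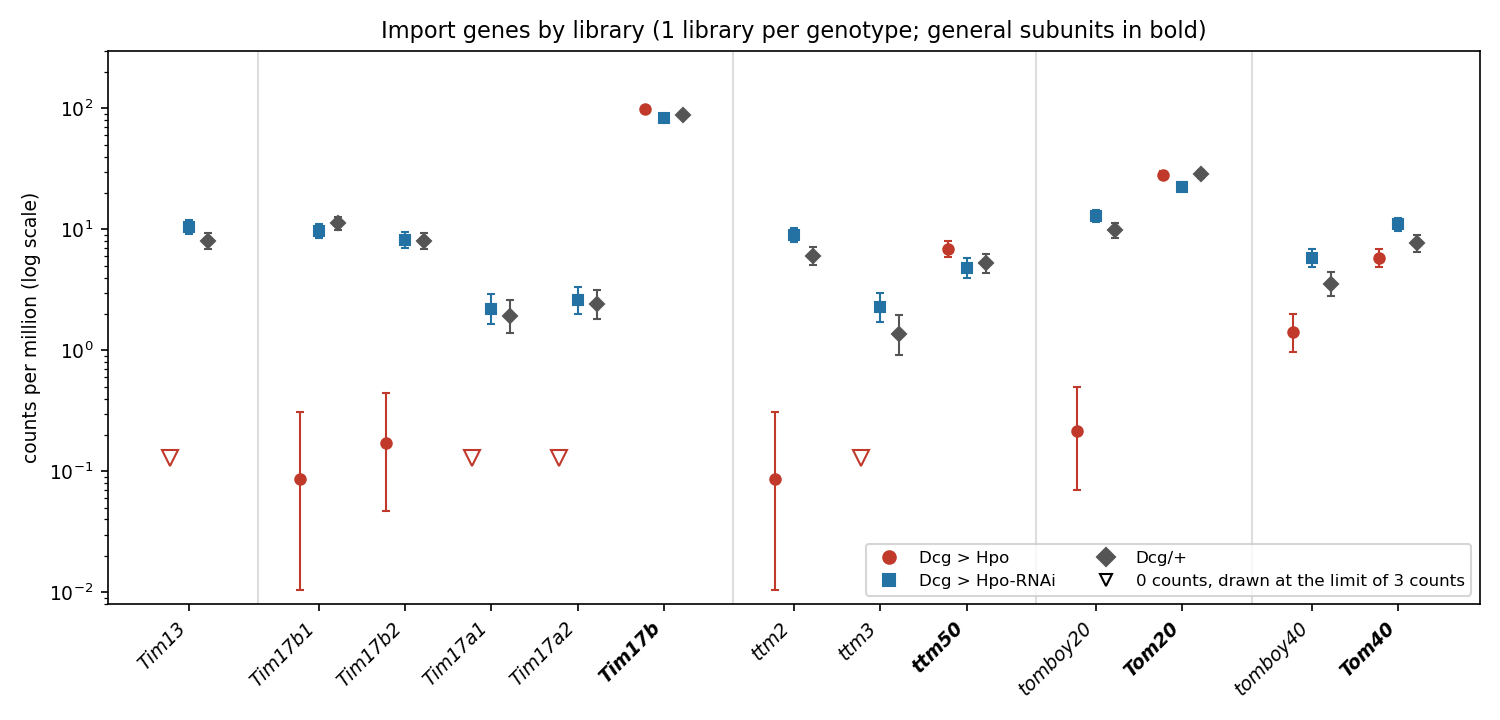
CPM (log scale) of the listed import genes and of Tim17b2, Tom20 and Tom40 in the 3 libraries, with exact 95% Poisson intervals of the count and open triangles at the limit of 3 counts for a count of 0. Points of Dcg > Hpo lie far under the other libraries for the paralogs and Tim13, with tomboy40 at 1.42 CPM as the highest of them, while the points of each general subunit in bold lie closer together, widest for Tom40 with 135 counts in Dcg > Hpo and 260 counts in Dcg > Hpo-RNAi, against 168 counts in Dcg/+.

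Tim13 encodes a small TIM chaperone that works with Tim8. It had 0 counts in Dcg > Hpo and 247 counts in Dcg > Hpo-RNAi, against 175 counts in Dcg/+. Reads of Tim13 were missing from Dcg > Hpo alone. With a floor of 3 counts set for the 0, Tim13 was at least 61.8-fold lower in Dcg > Hpo than in Dcg/+ and at least 81.3-fold lower than in Dcg > Hpo-RNAi. In Dcg > Hpo-RNAi it was at 1.32 times the share in Dcg/+ (95% interval 1.08 to 1.61), which lies under the threshold for a call.

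The Tim17 genes encode the core membrane subunit of the TIM23 complex. Tim17b had 2299 counts in Dcg > Hpo and 1947 counts in Dcg > Hpo-RNAi, against 1944 counts in Dcg/+, or 99.0, 82.8 and 88.7 CPM in that order. These levels lie close together, at a ratio of 1.12 (1.05 to 1.19) for Dcg > Hpo and 0.933 (0.876 to 0.994) for Dcg > Hpo-RNAi against Dcg/+. The direction of the Dcg > Hpo ratio turned with the scaling, at 0.988 with TMM factors and 0.980 after quantile normalization.

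The Tim17 paralogs behaved otherwise. Tim17b1 had 2 counts in Dcg > Hpo and 228 counts in Dcg > Hpo-RNAi, against 246 counts in Dcg/+. Tim17a1 had 0 counts in Dcg > Hpo and 52 counts in Dcg > Hpo-RNAi, against 42 counts in Dcg/+. Tim17a2 had 0 counts in Dcg > Hpo and 61 counts in Dcg > Hpo-RNAi, against 53 counts in Dcg/+. All 3 were nearly or wholly missing from Dcg > Hpo, and each had similar counts in Dcg > Hpo-RNAi and Dcg/+. Tim17b1 stood at 0.00767 times its Dcg/+ share in Dcg > Hpo (0.000924 to 0.0280), Tim17a1 was at least 14.8-fold lower and Tim17a2 at least 18.7-fold lower. In Dcg > Hpo-RNAi the ratios were 0.864 (0.718 to 1.04), 1.15 (0.753 to 1.78) and 1.07 (0.730 to 1.58), so all 3 intervals include 1.

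Tim17b2, a further Tim17 paralog that was not on the list, was also lowest in Dcg > Hpo. It had 4 counts in Dcg > Hpo and 193 counts in Dcg > Hpo-RNAi, against 175 counts in Dcg/+. Its ratio was 0.0216 (0.00581 to 0.0562) in the Dcg > Hpo library and 1.03 (0.833 to 1.27) in the Dcg > Hpo-RNAi library, both against Dcg/+.

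The Tim50 receptor is encoded by ttm50, with ttm2 and ttm3 as its paralogs. The general gene ttm50 had 161 counts in Dcg > Hpo and 113 counts in Dcg > Hpo-RNAi, against 115 counts in Dcg/+. It was highest in Dcg > Hpo, at 1.32 times the Dcg/+ share (1.03 to 1.69), and at 0.916 times in Dcg > Hpo-RNAi (0.700 to 1.20). The paralog ttm2 had 2 counts in Dcg > Hpo and 212 counts in Dcg > Hpo-RNAi, against 132 counts in Dcg/+. The paralog ttm3 had 0 counts in Dcg > Hpo and 54 counts in Dcg > Hpo-RNAi, against 30 counts in Dcg/+. Both paralogs were lowest in Dcg > Hpo and highest in Dcg > Hpo-RNAi. The ratio of ttm2 was 0.0143 (0.00171 to 0.0527) in the Dcg > Hpo library and 1.496 (1.20 to 1.87) in the Dcg > Hpo-RNAi library, while ttm3 was at least 10.6-fold lower in Dcg > Hpo and at 1.68 (1.05 to 2.71) in Dcg > Hpo-RNAi.

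In the outer membrane, tomboy20 is a paralog of the receptor gene Tom20. It had 5 counts in Dcg > Hpo and 306 counts in Dcg > Hpo-RNAi, against 215 counts in Dcg/+, which gives ratios of 0.0219 (0.00705 to 0.0520) and 1.33 (1.11 to 1.59). Tom20 itself had 654 counts in Dcg > Hpo and 530 counts in Dcg > Hpo-RNAi, against 626 counts in Dcg/+. Receptor and paralog thus parted in both comparisons, since the Tom20 ratio was 0.986 (0.882 to 1.10) in the Dcg > Hpo library and 0.789 (0.701 to 0.887) in the Dcg > Hpo-RNAi library. Exons of Tom20 overlap those of Gabat on the other strand, and whether the counting used strand is not given in the sources used here.

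Tom40 and tomboy40 encode the channel, and of the 4 families their Dcg > Hpo ratios lay closest together. The paralog tomboy40 had 33 counts in Dcg > Hpo and 136 counts in Dcg > Hpo-RNAi, against 78 counts in Dcg/+. It was the only one of the 8 genes with more than 5 counts in Dcg > Hpo, and its ratio there was 0.399 (0.257 to 0.607). After quantile normalization the ratio was 0.561 and the call was lost. In Dcg > Hpo-RNAi tomboy40 stood at 1.62 (1.22 to 2.17). Tom40 had 135 counts in Dcg > Hpo and 260 counts in Dcg > Hpo-RNAi, against 168 counts in Dcg/+. It followed the order of its paralog with smaller differences, at ratios of 0.758 (0.600 to 0.957) and 1.44 (1.18 to 1.76). The gene tomboy40 lies inside bin3 on the same strand, without shared exons, and bin3 had 647 counts in Dcg > Hpo and 495 counts in Dcg > Hpo-RNAi, against 336 counts in Dcg/+. Thus bin3 was highest in the library where tomboy40 was lowest, and the part of bin3 reads in the tomboy40 counts was not tested.

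**Figure D2:**
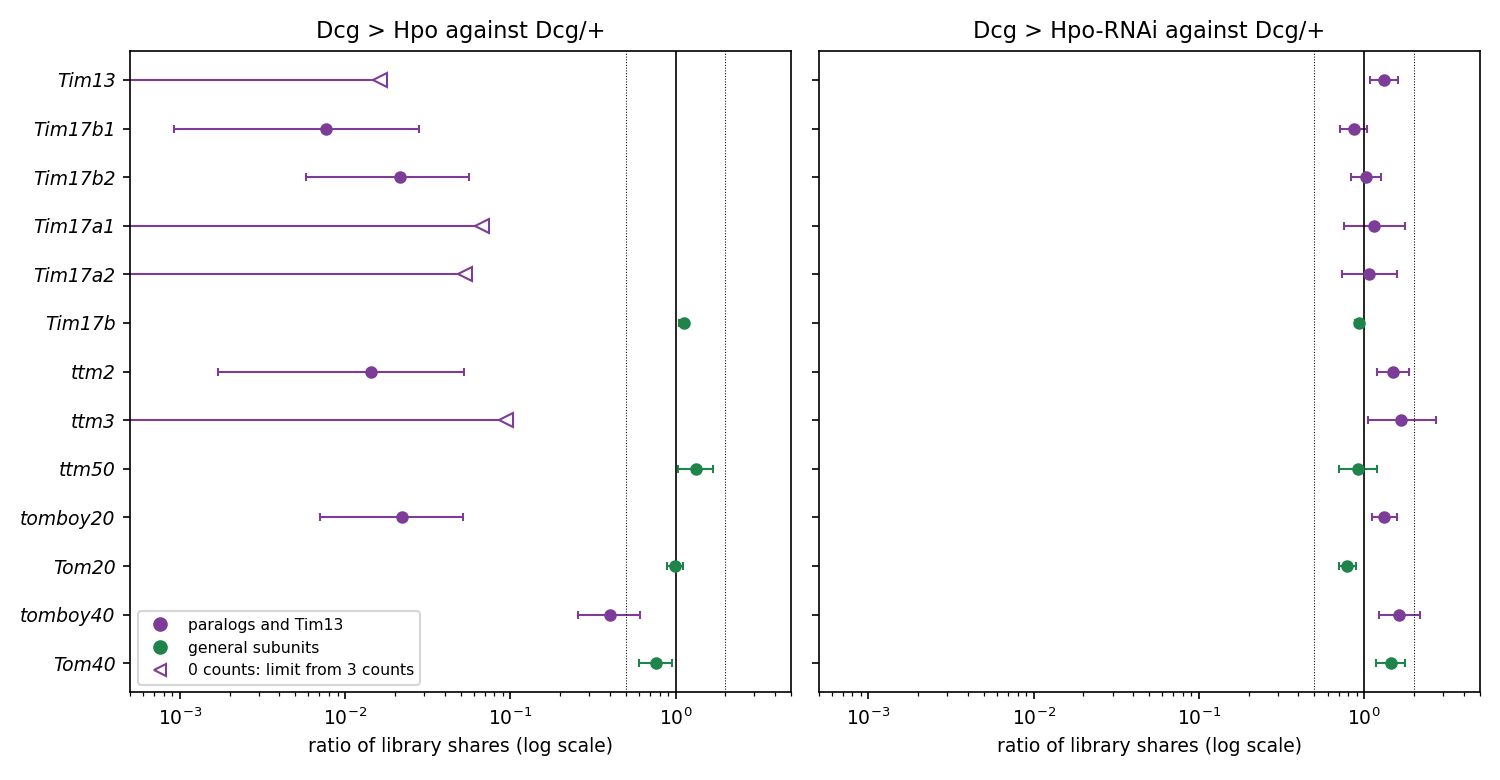
Ratios of library shares (log scale) against Dcg/+ for each import gene, with Dcg > Hpo on the left and Dcg > Hpo-RNAi on the right, exact 95% intervals of the split of counts, and dotted lines at 0.5 and 2. On the left the paralogs and Tim13 lie under 0.5 and the general subunits near 1. On the right every gene lies between the dotted lines.

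Among the listed genes, which were chosen by this ratio, the call threshold falls in a gap in Dcg > Hpo against Dcg/+. The gene just inside the threshold was tomboy40 at 0.399, and the next listed gene, Tim17b, stood at 1.12. Import genes that were not listed lie in this gap, among them CG7639 at 0.569, Tim8 at 0.697 and Tom40 at 0.758. Counts of 0 were not rare in Dcg > Hpo among genes with Dcg/+ counts like those of the paralogs and Tim13. Of 5342 genes with 30 to 246 counts in Dcg/+, the range of the paralogs and Tim13, 622 (11.6%) had 0 counts in Dcg > Hpo and 1067 (20.0%) had 5 or fewer. In Dcg > Hpo-RNAi, 23 (0.431%) of the same genes had 0 counts and 56 (1.05%) had 5 or fewer.

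The share of a family's counts that fell on its paralogs needs no scaling between libraries. In the Tim17 family, with Tim17b2 included, the paralogs held 6 of 2305 counts in the Dcg > Hpo library and 534 of 2481 in the Dcg > Hpo-RNAi library, against 516 of 2460 in Dcg/+. These are 0.260% (0.0956 to 0.566), 21.5% (19.9 to 23.2) and 21.0% (19.4 to 22.6). In the Tim50 family the paralogs held 1.23% (0.149 to 4.36) in the Dcg > Hpo library and 70.2% (65.3 to 74.7) in the Dcg > Hpo-RNAi library, against 58.5% (52.4 to 64.3) in Dcg/+. Paralogs thus supplied most reads of the Tim50 family in Dcg > Hpo-RNAi and Dcg/+, and the general gene nearly all of them in Dcg > Hpo. Reads come from transcript ends, so these shares compare libraries, and the way reads shared by related copies were counted is not given in the sources used here.

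In the Tom20 family, tomboy20 held 0.759% (0.247 to 1.76) in the Dcg > Hpo library and 36.6% (33.3 to 40.0) in the Dcg > Hpo-RNAi library, against 25.6% (22.6 to 28.7) in Dcg/+. The Tom40 family differed from it, as tomboy40 held 19.6% (13.9 to 26.5) in the Dcg > Hpo library and 34.3% (29.7 to 39.3) in the Dcg > Hpo-RNAi library, against 31.7% (25.9 to 37.9) in Dcg/+. The Tom40 family kept the largest paralog share in Dcg > Hpo of the 4 families.

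**Figure D3:**
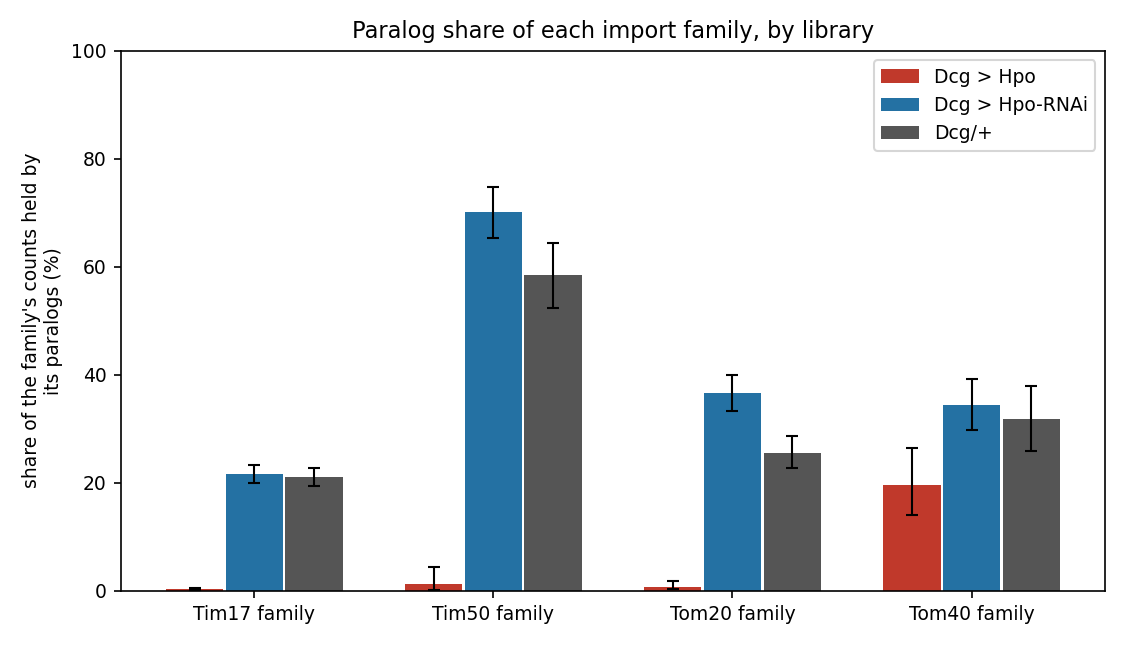
Percent of each family's counts held by its paralogs in the 3 libraries, with exact binomial 95% intervals. The Dcg > Hpo bars stand at 0.260%, 1.23% and 0.759% for the Tim17, Tim50 and Tom20 families and at 19.6% for the Tom40 family, under both other libraries in each.

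Expressed as an odds ratio of paralog to general counts, Dcg > Hpo against Dcg/+ stood at 0.00984 (0.00359 to 0.0216) for Tim17, 0.00889 (0.00105 to 0.0339) for Tim50, 0.0223 (0.00712 to 0.0534) for Tom20 and 0.527 (0.319 to 0.857) for Tom40. The first 3 families had overlapping intervals, and that of Tom40 lay above them. As the listed paralogs were chosen by their counts in these 2 libraries, that is a description only. For Dcg > Hpo-RNAi against Dcg/+ the odds ratio was 1.67 (1.19 to 2.34) for Tim50 and 1.68 (1.36 to 2.08) for Tom20, both above 1 by more than counting error. It was 1.03 (0.899 to 1.19) for Tim17 and 1.13 (0.792 to 1.61) for Tom40, where the intervals include 1. Without replicate libraries, the spread of these odds between larvae is unknown.

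As a group, the 7 paralogs and Tim13 together had 42 counts in Dcg > Hpo and 1296 counts in Dcg > Hpo-RNAi, against 971 counts in Dcg/+. Of the 42 counts, 33 came from tomboy40. The median log2 ratio of the 8 genes in Dcg > Hpo was -5.52, or -4.87 with counts of 0 set at 3, against 0.09 over all genes with enough counts. The summed ratio was 0.0408 (0.0292 to 0.0556) in Dcg > Hpo, or 0.00951 (0.00433 to 0.0181) without tomboy40. In Dcg > Hpo-RNAi it was 1.24 (1.14 to 1.35), where the median log2 ratio of the 8 was 0.40, against 0.08 over all genes. There 7 of the 8 genes had a ratio over 1, with Tim17b1 as the exception, and the share of all genes over 1 is not given here. The intervals of Tim17a1, Tim17a2 and Tim17b1 include 1. These directions were the same under each of the 4 scalings, which all use the same libraries. The 4 general genes Tim17b, ttm50, Tom20 and Tom40 summed to 3249 counts in Dcg > Hpo and 2850 counts in Dcg > Hpo-RNAi, against 2853 counts in Dcg/+. None of the 4 was called in any comparison on library totals, and their summed ratios were 1.07 and 0.931. Tom40 was called lower in Dcg > Hpo against Dcg > Hpo-RNAi with TMM factors, at 0.495, and was not called on library totals, at 0.526.

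The wider import list held 31 genes with counts, 10 of them the listed genes. Outside the 10, 3 of 21 were called lower in Dcg > Hpo than in Dcg/+ and none higher, beside 22.8% lower and 18.2% higher over all genes. Their median log2 ratio was -0.20, against 0.09 over all genes with enough counts. The 3 were Tim17b2, Tom70 and CG11779. Tom70, a receptor of the TOM complex, had 60 counts in Dcg > Hpo and 310 counts in Dcg > Hpo-RNAi, against 356 counts in Dcg/+, a ratio of 0.159 (0.119 to 0.210) in Dcg > Hpo. It lay between the paralogs and the general subunits, and its exons overlap those of CG18788 on the other strand, which had 25 counts in Dcg > Hpo and 79 counts in Dcg > Hpo-RNAi, against 65 counts in Dcg/+. CG11779 had 98 counts in Dcg > Hpo and 301 counts in Dcg > Hpo-RNAi, against 235 counts in Dcg/+, at 0.394 (0.308 to 0.5002), and its exons overlap those of nanos on the other strand. CG7639 was just outside the threshold at 0.569.

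The other subunits of the same complexes were not called in Dcg > Hpo against Dcg/+. Tim23, the partner of Tim17 in the membrane core, had 811 counts in Dcg > Hpo and 874 counts in Dcg > Hpo-RNAi, against 835 counts in Dcg/+. Tim8, the partner of Tim13, had 1086 counts in Dcg > Hpo and 2437 counts in Dcg > Hpo-RNAi, against 1470 counts in Dcg/+. Tim13 and Tim8 thus shared the order of the libraries and not its size, since Tim8 stood at 0.697 (0.644 to 0.755) in Dcg > Hpo. Tim8 was called lower in Dcg > Hpo against Dcg > Hpo-RNAi, at 0.451 (0.420 to 0.485). The chaperone genes Tim9a, Tim9b and Tim10 had ratios of 1.06, 1.01 and 0.707 in Dcg > Hpo. Tom7, a small TOM subunit, had 11475 counts in Dcg > Hpo and 9195 counts in Dcg > Hpo-RNAi, against 6142 counts in Dcg/+, a ratio of 1.76 (1.71 to 1.82). CG34132, another gene of the small TIM list, had 586 counts in Dcg > Hpo and 301 counts in Dcg > Hpo-RNAi, against 280 counts in Dcg/+. Its ratio reached 1.97 (1.71 to 2.29), just under the threshold. It was thus highest in the library where Tim13 had 0 counts.

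In Dcg > Hpo-RNAi, 2 of the 21 other import genes were called higher than in Dcg/+ and none lower, beside 7.81% higher and 9.09% lower over all genes. Both belong to the import motor at the matrix side of the TIM23 channel, where the Hsp70 encoded by Hsc70-5 pulls proteins inward. Roe1, its nucleotide exchange factor, had 162 counts in Dcg > Hpo and 508 counts in Dcg > Hpo-RNAi, against 206 counts in Dcg/+. The motor subunit gene blp had 114 counts in Dcg > Hpo and 205 counts in Dcg > Hpo-RNAi, against 94 counts in Dcg/+. Roe1 and blp were each highest in Dcg > Hpo-RNAi, at 2.30 (1.95 to 2.71) and 2.03 (1.58 to 2.62) times the Dcg/+ share, and blp was not called with TMM factors or median-of-ratios factors. Hsc70-5 stood at 0.870 (0.778 to 0.972) in the Dcg > Hpo library and 0.998 (0.896 to 1.11) in the Dcg > Hpo-RNAi library. Neither Hsc70-5 nor the other listed motor genes was called in Dcg > Hpo-RNAi. These are CG7394 at 1.11 (0.946 to 1.30) and CG11779 at 1.19 (1.003 to 1.42).

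Other mitochondrial genes have a second copy of the same kind, and 17 such copies were compared with their 16 general genes. Of the copies, 16 of 17 were called lower in Dcg > Hpo than in Dcg/+, and of the general genes 2 were called higher and none lower. Over all genes with enough counts, 22.8% were called lower and 18.2% higher. The copy fzo is also among the testis markers below. Cyt-c-d, a cytochrome c gene used in spermatids, had 1 count in Dcg > Hpo and 438 counts in Dcg > Hpo-RNAi, against 318 counts in Dcg/+, whereas Cyt-c-p, the general cytochrome c gene, had 326, 116 and 110 counts in that order. The mitochondrial fusion gene fzo, which acts at the nebenkern, had 3 counts in Dcg > Hpo and 306 counts in Dcg > Hpo-RNAi, against 201 counts in Dcg/+. Its general relative Marf had 950 counts in Dcg > Hpo and 647 counts in Dcg > Hpo-RNAi, against 505 counts in Dcg/+. In both pairs the general gene and the copy lay on opposite sides of Dcg/+ in Dcg > Hpo.

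Pairs of respiratory subunits and membrane carriers were measured in the same way. COX4L had 0 counts in Dcg > Hpo and 687 counts in Dcg > Hpo-RNAi, against 559 counts in Dcg/+, beside COX4 with 9093, 5842 and 5640 counts. Porin2 had 3 counts in Dcg > Hpo and 313 counts in Dcg > Hpo-RNAi, against 309 counts in Dcg/+, beside porin, the outer membrane channel for metabolites, with 21504, 17671 and 10616 counts. Ant2, an ADP/ATP carrier gene, had 63 counts in Dcg > Hpo and 514 counts in Dcg > Hpo-RNAi, against 475 counts in Dcg/+, and its neighbour sesB, which it overlaps, had 10987, 4744 and 4604 counts. Each of these 3 copies was lowest in Dcg > Hpo and each of their general genes highest there.

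The remaining copies called lower were ATPsynbetaL, ATPsynCF6L, ATPsynGL, COX6AL, COX7AL, ND-20L, ND-24L, ND-51L1, ND-51L2, UQCR-14L and UQCR-6.4L, with 0 to 12 counts in Dcg > Hpo. COX5BL was the copy not called, with 83 counts in Dcg > Hpo and 192 counts in Dcg > Hpo-RNAi, against 154 counts in Dcg/+, a ratio of 0.509. The 16 general genes had ratios of 1.20 to 2.80 in Dcg > Hpo, with Cyt-c-p and sesB past the threshold. In Dcg > Hpo-RNAi none of the 17 copies or 16 general genes was called, beside 7.81% higher and 9.09% lower over all genes. Their median log2 ratios there were 0.28 and 0.02. COX6AL had the highest copy ratio there, at 1.94, with 171 counts in Dcg > Hpo-RNAi against 82 counts in Dcg/+.

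Testis markers, genes of spermatocytes and later male germ cells, moved with these genes. Of 31 markers with counts, 30 were called lower in Dcg > Hpo than in Dcg/+ and none higher, beside 22.8% lower and 18.2% higher over all genes. Their median log2 ratio was -5.44, or -4.83 with counts of 0 set at 3, against 0.09 over all genes with enough counts. The markers summed to 27.7 CPM in the Dcg > Hpo library and 809 in the Dcg > Hpo-RNAi library, against 716 in Dcg/+. That is a ratio of 0.0387 (0.0358 to 0.0419) in Dcg > Hpo, beside 0.0408 for the paralogs and Tim13 or 0.00951 without tomboy40, and of 1.13 (1.11 to 1.15) in Dcg > Hpo-RNAi, beside 1.24. Single markers ranged up to 166 counts in Dcg > Hpo and 3573 counts in Dcg > Hpo-RNAi, against 2858 counts in Dcg/+. In Dcg > Hpo, 6 of the 31 were at 0 counts, among them the spermatocyte gene regulators aly and can, and none was at 0 in the other libraries. The part of testis RNA in the differences of the import genes was not tested.

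The 6 markers with most counts in Dcg/+ were dj, Mst84Da, Mst84Db, ocn, betaTub85D and Mst84Dd. The gene dj, of a sperm tail protein, had 69 counts in Dcg > Hpo and 3573 counts in Dcg > Hpo-RNAi, against 2858 counts in Dcg/+. The testis tubulin gene betaTub85D had 16 counts in Dcg > Hpo and 1136 counts in Dcg > Hpo-RNAi, against 1023 counts in Dcg/+. The gene ocn had 20 counts in Dcg > Hpo and 1379 counts in Dcg > Hpo-RNAi, against 1142 counts in Dcg/+. All were scarce in Dcg > Hpo and abundant in both other libraries. The sperm tail genes Mst84Da, Mst84Db and Mst84Dd had 15 to 32 counts in Dcg > Hpo and 1008 to 2559 counts in Dcg > Hpo-RNAi, against 992 to 1891 counts in Dcg/+, and as related neighbours they may share reads.

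The marker not called lower was twe, a meiotic phosphatase gene, at 0.655 (0.534 to 0.802) with 166 counts in Dcg > Hpo and 318 counts in Dcg > Hpo-RNAi, against 239 counts in Dcg/+. Of 6 markers of the early germ line with enough counts, 3 were called lower in Dcg > Hpo than in Dcg/+. Over all genes, 22.8% were called lower and 18.2% higher in that comparison. The other 3, bam, nos and aub, were not called, at 1.74, 0.777 and 0.692. Those called lower were vas at 0.105 (0.0405 to 0.229), bgcn at 0.0581 (0.0154 to 0.156) and AGO3 at 0.460 (0.255 to 0.804). All 7 listed early markers summed to 0.843 (0.728 to 0.976) times their Dcg/+ share, with 353 counts in Dcg > Hpo against 395 counts in Dcg/+. Most of the 353 counts came from bam, so this sum does not describe the other early markers. The marker bam had 258 counts in Dcg > Hpo and 27 counts in Dcg > Hpo-RNAi, against 140 counts in Dcg/+. Markers of other tissues moved too, since the 6 muscle markers were all called higher in Dcg > Hpo, at 1028 CPM in the Dcg > Hpo library and 41.6 in the Dcg > Hpo-RNAi library, against 108 in Dcg/+. The 5 gut markers, all called higher in Dcg > Hpo, stood at 954 CPM in the Dcg > Hpo library and 74.6 in the Dcg > Hpo-RNAi library, against 22.9 in Dcg/+. Of the 5 neuron markers 4 were called higher in Dcg > Hpo, elav, nSyb, brp and fne, at 4.91 to 66.4 times the Dcg/+ share. All 5 together stood at 216 CPM in the Dcg > Hpo library and 186 in the Dcg > Hpo-RNAi library, against 213 in Dcg/+. Most of these counts came from Syt1, which was not called and stood at 0.541 (0.515 to 0.568) in Dcg > Hpo. Salivary gland markers, genes of glue proteins, stood at 24502 CPM in the Dcg > Hpo library and 663 in the Dcg > Hpo-RNAi library, against 50054 in Dcg/+. None of the 7 fat body markers was called in any comparison, and the part of the other tissues in the import differences was not tested.

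**Figure D4:**
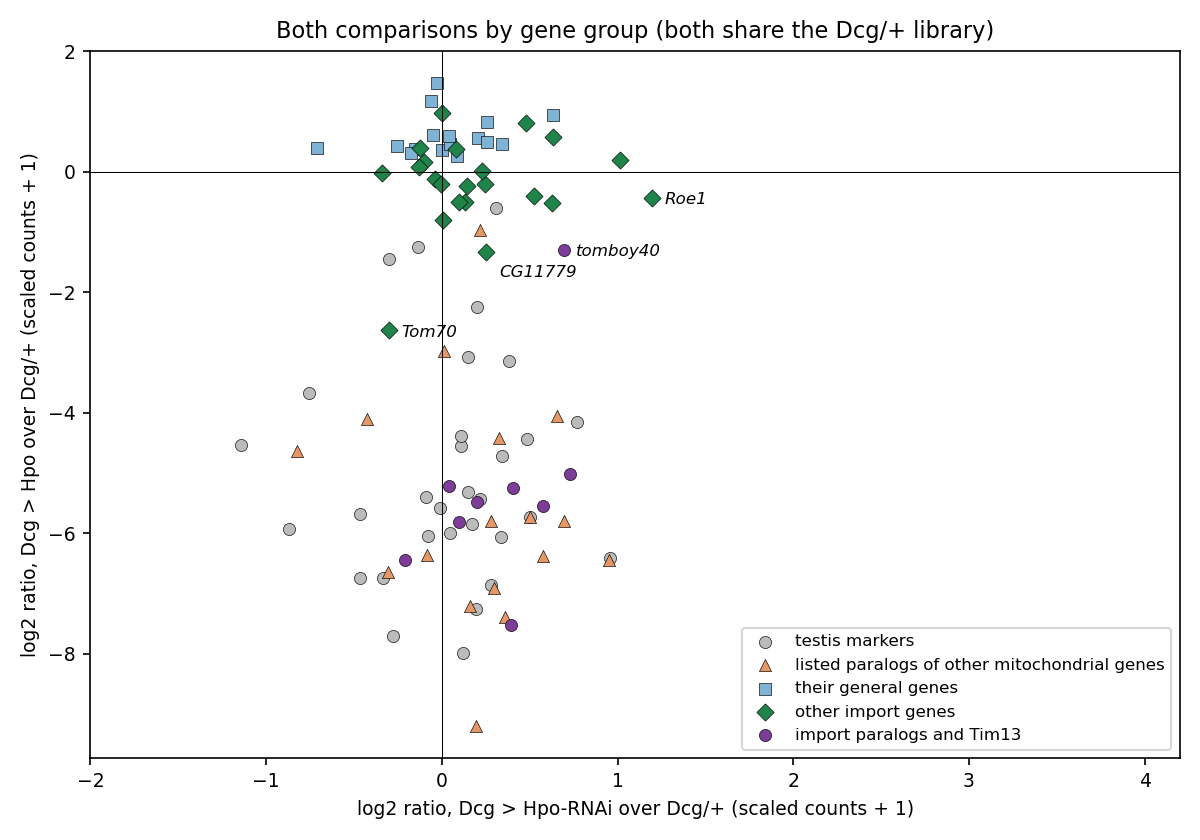
Log2 ratios (counts scaled to a common total, plus 1) of single genes, with Dcg > Hpo-RNAi over Dcg/+ on the x axis and Dcg > Hpo over Dcg/+ on the y axis, by gene group. Both axes share the Dcg/+ library. The import paralogs and Tim13 lie in the range of the testis markers and of the other listed paralogs, with tomboy40 above most of them, and the general genes lie near or above 0 on the y axis.

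The genes with the pattern most like the called paralogs were sought among 8203 genes with at least 50 counts in Dcg/+, as the distance between a gene's pair of log2 ratios over the 3 libraries and the medians of the 9 called genes, -5.49 in the Dcg > Hpo library and 0.39 in the Dcg > Hpo-RNAi library. The 8 nearest were CG13110, CG14355, CG34168, CG31816, CG1340, CG12831, CG10064 and Hsp60B, at distances of 0.0802 to 0.148, and 143 genes lay within 0.5. CG34168 had 53 counts in Dcg > Hpo and 2845 counts in Dcg > Hpo-RNAi, against 2114 counts in Dcg/+. Hsp60B, a relative of the mitochondrial chaperone Hsp60, had 9 counts in Dcg > Hpo and 640 counts in Dcg > Hpo-RNAi, against 467 counts in Dcg/+. Many genes of these libraries thus shared the pattern of the import paralogs.

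The genes also differed in structure and place, in coordinates of BDGP6, the assembly of dm6. Tim13 (FBgn0036204) lies at chr3L:11774060-11774501 on the minus strand with 1 exon. The listed Tim17 paralogs lie on chromosome arm 3R, with Tim17b1 (FBgn0037310) at chr3R:5300145-5301186 with 3 exons, Tim17a2 (FBgn0037307) at chr3R:5258336-5262692 with 2 exons and Tim17a1 (FBgn0038018) at chr3R:12363667-12364680 with 1 exon. Tim17b1 lies within mtd and Tim17a2 within Hph, each on the other strand. Of those neighbours, mtd was highest in Dcg > Hpo, with 1548 counts there and 751 counts in Dcg > Hpo-RNAi, against 1081 counts in Dcg/+. Hph had 4, 9 and 22 counts in that order. It was lowest in Dcg > Hpo, as Tim17a2 was, and also lower in Dcg > Hpo-RNAi than in Dcg/+. The general Tim17b (FBgn0263977) is also on 3R, at chr3R:3734855-3745306 with 3 exons.

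Both Tim50 paralogs had 1 exon, with ttm2 (FBgn0035124) at chr3L:275155-276667 and ttm3 (FBgn0032971) at chr2L:22079632-22080738, whereas ttm50 (FBgn0250874) has 5 exons at chrX:2730077-2732190. The outer membrane paralogs had 1 exon each, with tomboy20 (FBgn0037828) at chr3R:10735277-10735957 and tomboy40 (FBgn0033074) at chr2R:6225634-6226884. Of the 8 genes lower in Dcg > Hpo, 6 (75%) had a single exon, against 16.1% of 11837 protein-coding genes matched to the table, and 28.9% of the 2179 protein-coding genes called lower in Dcg > Hpo. None of the 4 general genes had a single exon. None of the paralogs and Tim13 lies on the X chromosome, and 2 of the 4 general genes, ttm50 and Tom40, do. The X chromosome holds 15.8% of the matched protein-coding genes and 14.5% of those called lower in Dcg > Hpo. Whether so few genes differ from these shares was not tested.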

How the data were processed

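Per the labels and the study, total RNA was sequenced with the Lexogen QuantSeq kit, which reads transcript ends, by a service company. The deposited values are raw counts per gene for 16509 genes in each of 3 libraries, on build dm6. How reads were aligned, counted and assigned to strands is not given in the sources used here. Counts were divided by library totals. The split of a gene's counts between a pair of libraries gave the 95% interval of its ratio (Clopper-Pearson), and single counts took exact Poisson intervals (scipy 1.17.1), for counting error only. A count of 0 took a floor of 3 counts. No test was run, since each genotype has 1 library. The ratio code was tested on simulated data. Medians of log2 ratios used scaled counts plus 1. TMM (edgeR 4.0.16), median-of-ratios (DESeq2 1.42.0) and quantile (limma 3.58.1) scalings were tried. Older symbols were matched to RefSeq symbols, and Sam50, Tim22, rye, Pros28.1A, ATPsynDL and UQCR-11 were not used here. CG10268 was taken off the import list because it is annotated as Pmvk. Genes named are the listed ones, their families, called import genes and those with the largest ratios, mitochondrial pairs with a call, the 6 most abundant testis markers and the 8 genes of nearest pattern, plus a few given beside them after their values were seen. The listed genes and the gene lists were chosen with earlier results of these data known.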

Additional observations from a re-analysis of the deposited data

How the results depend on the processing

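With TMM factors, median-of-ratios factors or quantile normalization in place of library totals, the calls of the 10 listed genes were the same in all 3 comparisons, except that tomboy40 in Dcg > Hpo against Dcg/+ stood at 0.561 after quantile normalization and was not called. TMM factors moved the median log2 ratio of genes counted in both libraries to -0.01 in Dcg > Hpo against Dcg/+, where library totals gave 0.17. Between Dcg > Hpo-RNAi and Dcg/+, the 2 import genes called higher were 1 with TMM or median-of-ratios factors, 6 at a 1.5-fold threshold and 0 at 3-fold. At 1.5-fold, 2 listed genes were higher in that comparison, 2 import genes were higher in Dcg > Hpo against Dcg/+ and 1 was higher in Dcg > Hpo against Dcg > Hpo-RNAi, where the 2-fold threshold gave 0 each. Testis markers called higher in Dcg > Hpo-RNAi against Dcg/+ were 1 after quantile normalization and 2 at 1.5-fold, against 0, and those called lower were 3 at 1.5-fold and 0 at 3-fold, against 1. Without Tim17b1 the paralog share of the Tim17 family was 13.6% in Dcg > Hpo-RNAi and 12.2% in Dcg/+, and without ttm2 that of the Tim50 family was 0% (0 to 2.27, exact binomial) in Dcg > Hpo, 32.3% in Dcg > Hpo-RNAi and 20.7% in Dcg/+. The 2 alternatives chosen after seeing the data, leaving tomboy40 out of the sums and adding CG10268 to the import list, changed no count of calls beyond tomboy40 itself. No paired analysis was possible because each genotype has 1 library, and for the same reason no replicate could be left out. Protein identities and promoter motifs were planned and were not run.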
